A study of Mus musculus with 17 samples.

Results

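The interaction of versikine and LPS was examined in MutuDC, an immortalised mouse dendritic cell line of the type 1 conventional kind, by RNA sequencing of 11 of the 17 mouse samples of the series. The labels give 4 groups of this line: EV (n = 2), Vkine (n = 3), EV + LPS (n = 3, called LPS-treated EV) and Vkine + LPS (n = 3, called LPS-treated Vkine). Vkine is the label for versikine; the labels do not spell out EV, which serves here as the control. The groups share 1 cell line and differ, as far as the labels say, in Vkine or EV and in the presence of LPS. The route of Vkine and the LPS dose and duration are not given in the sources used. Nor do the labels say whether replicates were separate cultures; the p-values reflect only how far these samples spread, and that spread may be technical. The members are the genes that passed a low-count filter, 13357 of the 54532 in the count table. For each gene the difference between LPS-treated Vkine and LPS-treated EV was set against the difference between Vkine and EV, on the log2 scale. This difference of differences is called the interaction, and a value of 0 means that the fold changes of Vkine and of LPS multiplied each other.

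Versican is a matrix proteoglycan, and ADAMTS proteases cut from its amino-terminal end the fragment called versikine. LPS is a glycolipid of the bacterial outer membrane that Toll-like receptor 4 recognises. In dendritic cells the receptor signals through one adaptor pathway to NF-kB and mitogen-activated kinases and through another to interferon regulatory factors. Dendritic cells answer with cytokines, chemokines, costimulatory molecules and interferon-stimulated genes, and they also rewire sterol, lipid and energy metabolism.

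Library totals ran from 15938185 to 21263321 counts, and the correlation of log2 CPM (counts scaled to the library total) between libraries of a group was 0.985 to 0.994. Of 22 genes typical of type 1 conventional dendritic cells, 21 were measured, and their summed level was 11050 to 13450 CPM in every library. Of 16 T, B and NK cell markers, 13 stayed under 1 CPM in every library, and 9 of these had no count at all, Cd3e and Ncr1 among them. The list still summed to 75.4 to 212 CPM, mostly from Ighm, an immunoglobulin heavy chain. The 16 macrophage and monocyte markers summed to 478 to 654 CPM, with Lyz2 at 199 to 263 and 6 markers under 1 CPM in every library. The median LPS effect over 25 measured LPS-induced genes was 2.09 in EV and 2.45 in Vkine (log2). Gene by gene the order was mixed: their median interaction was -0.09, positive in 11 and negative in 14. The share of counts in mitochondrial genes was lowest in LPS-treated Vkine, at 0.936% to 1.03%, against 1.36% to 1.41% in EV, 1.72% to 1.86% in Vkine and 1.73% to 1.96% in LPS-treated EV. The share in cytosolic ribosomal protein genes was 2.08% to 2.25% in Vkine, below the 2.38% to 3.34% of the other groups. In bulk RNA, fewer cells of a type and less RNA per cell cannot be told apart.

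The difference between Vkine and EV changed with LPS in 6577 genes. The interaction was called higher in 3409 genes (25.5% of those tested) and lower in 3168 (23.7%), 49.2% together, by the edgeR quasi-likelihood test at a Benjamini-Hochberg adjusted p under 0.05. Higher means that Vkine raised the gene more, or lowered it less, with LPS than without. Of the called genes, 1002 had an interaction above 1 and 1148 below -1, against a median standard error of 0.16 over all genes. Among called genes 51.8% were higher. In a limma fit of the deposited FPKM, with 1 added before taking logs, 39% of the called genes were higher (2584 against 4050). In that fit the median interaction of all genes was -0.12, against -0.02 in the counts. A further fit, chosen after seeing the data, had terms for GC content and transcript length in each library. Its values are given below for most named genes where these terms ended or made a call or moved the interaction by over 1.5 times. For lists they are given in part, so a list count or median without such a value may also have changed. The sign did not rest on the log scale for most calls: the same difference of differences in CPM had the same sign in 3409 of the 3409 genes called higher and in 3149 of the 3168 called lower.

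**Figure D1:**
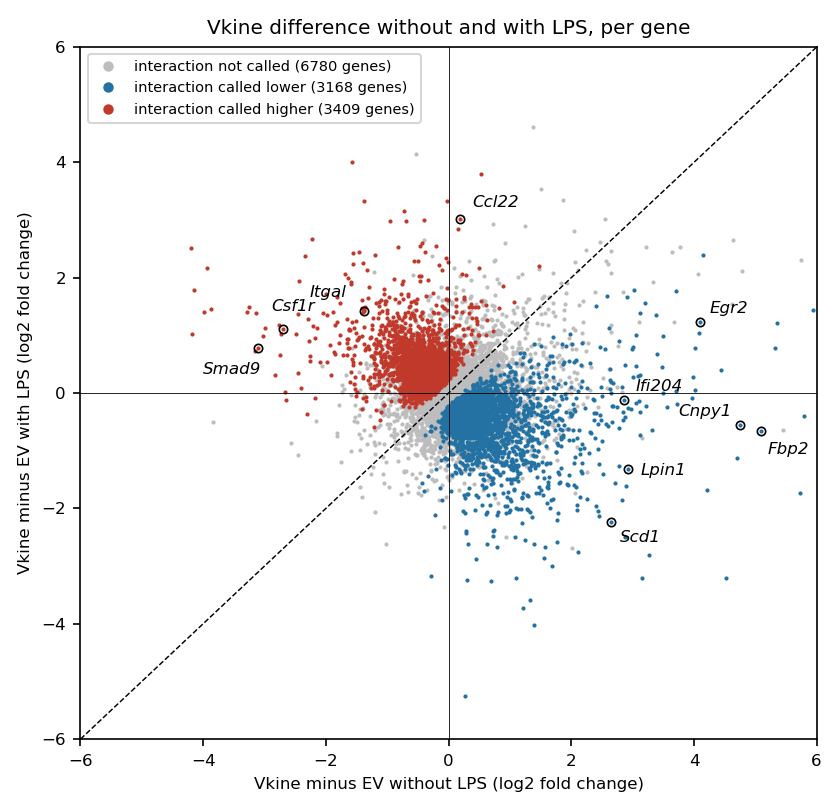
Each point is a gene, with the log2 fold change of Vkine against EV without LPS on the x axis and with LPS on the y axis; the dashed diagonal marks an interaction of 0. Genes called higher (red, 3409) lie above the diagonal and genes called lower (blue, 3168) below it, many of them in the upper left and lower right areas where the 2 differences have opposite signs, and 5 genes lie outside the axes.

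Many genes did not merely respond more or less to Vkine but responded the other way. Without LPS, Vkine raised 2261 genes (16.9%) and lowered 2446 (18.3%), and with LPS it raised 3043 (22.8%) and lowered 2563 (19.2%). Of the 2818 genes called in both comparisons, which share no samples, 381 moved in the same direction. The other 2437 moved in opposite directions and were also called by the interaction: 1449 were lower without LPS and higher with it, and 988 were higher without and lower with it. Leaving out EV replicate 1 or 2, so that a single EV sample stood for its group, gave 1484 and 1571 such genes, and 2748 and 2906 genes called for Vkine without LPS in place of 2261 raised and 2446 lowered, 4707 in all. Among the genes called higher, a further 956 (28%) were called only as higher with LPS and 711 (20.9%) only as lower without it. Among the genes called lower, 1074 (33.9%) were called only as lower with LPS and 750 (23.7%) only as higher without it. In the 2437 genes the median absolute log2 difference from EV was 0.48 in Vkine, 0.40 in LPS-treated EV and 0.15 in LPS-treated Vkine. At the median these genes lay closer to EV with both agents than with either alone, but all 3 differences share the EV samples. The genes were also selected for a called Vkine difference and an opposite one under LPS. That choice favours this order, so no conclusion is drawn from it.

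Csf1r, the receptor for the growth factor CSF1, was lower with Vkine without LPS and higher with it. Its levels were 148 and 139 CPM in EV, 21.9, 22.4 and 22.4 in Vkine, 51.7, 53.4 and 54.4 in LPS-treated EV, and 109.9, 122 and 114 in LPS-treated Vkine. No library of a group overlapped another group: Vkine alone was lowest, and the cells given both stood between EV and LPS-treated EV. The Vkine difference was -2.69 ± 0.07 without LPS and 1.12 ± 0.06 with it (log2 fold change ± SE), an interaction of 3.81 ± 0.10 (edgeR adjusted p = 4.0e-13). Had the fold changes multiplied, the level with both would have been 8.22 CPM, and the mean was 115 CPM.

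Genes of the BMP and TGF-beta pathway behaved alike. BMP signals through receptor-activated SMAD proteins, and the Id genes, whose products hold back basic helix-loop-helix factors, are classical targets. Of 14 measured members of this list, 9 were called higher and 2 lower, with a median interaction of 0.80, and 7 of the 9 were lower without LPS and higher with it. Smad9, a receptor-activated SMAD (chromosome 3, 54755582 to 54801257, GRCm38), was at 50.6 and 53.8 CPM in EV, 6.50, 6.08 and 5.56 in Vkine, 23.7, 26.8 and 22.5 in LPS-treated EV and 40.7, 41.6 and 43.5 in LPS-treated Vkine. Vkine alone was again lowest, and the interaction was 3.89 ± 0.13 (edgeR adjusted p = 6.6e-12). Id3 was at 395 and 397 CPM in EV, 100.3, 91.6 and 78.2 in Vkine, 180.3, 138 and 181 in LPS-treated EV and 354, 381 and 350.3 in LPS-treated Vkine. The Vkine libraries lay below all others, with differences of -2.14 ± 0.11 without and 1.12 ± 0.10 with LPS. Id1 and Smad7, an inhibitory SMAD, had interactions of 3.04 ± 0.14 and 3.33 ± 0.31. Tgfbr2, a TGF-beta receptor subunit, went the other way at low levels, from a mean of 1.09 CPM in EV and 2.66 in Vkine to 1.52 in LPS-treated EV and 0.437 in LPS-treated Vkine, an interaction of -3.04 ± 0.44.

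Several other genes with large positive interactions encode surface and signalling proteins, a description of the genes selected for size and not of a list. Itgal, the alpha chain of the integrin LFA-1, was at 313 and 313 CPM in EV, 123, 122 and 118 in Vkine, 184, 207 and 176 in LPS-treated EV and 495, 514 and 509.8 in LPS-treated Vkine. Here the libraries with both agents were the highest of all, and the interaction was 2.79 ± 0.10 (edgeR adjusted p = 6.6e-12). Its ligand Icam1 was nearly level in 3 groups, with means of 173 ± 1.26, 147 ± 9.16 and 145 ± 2.60 CPM (SD), and reached 378 ± 6.89 with both, an interaction of 1.61 ± 0.09. Csf2rb, the shared receptor chain for GM-CSF, IL-3 and IL-5, had an interaction of 2.95 ± 0.10; its near copy Csf2rb2 makes its count uncertain. The semaphorin Sema4a, the adaptor Dok2, the ATP-gated channel P2rx5, Btbd11 and the stress gene Gadd45g ranged from 2.82 to 3.47, each lower with Vkine alone and higher with Vkine under LPS. Bcl2a1b, an anti-apoptotic BCL2 relative whose reads may be shared with near-identical copies, was at 1.61 to 4.13 CPM in every library of 3 groups and at 28.7, 34.4 and 31.4 in LPS-treated Vkine. Bcl2l1, which encodes the survival protein BCL-XL, showed the same shape, with means of 12.1 ± 0.145, 11.5 ± 0.685, 10.1 ± 1.34 and 28.0 ± 1 CPM in the same order of groups (SD). Atp5k, a small subunit of the ATP synthase, had an interaction of 3.64 with a standard error of 0.61, and its Vkine libraries spread from 7.41 to 25.2 CPM. Of 18 measured integrin and adhesion genes 5 were called higher and 4 lower, near the 25.5% and 23.7% of all genes. With the GC and length terms 6 were higher and 3 lower. Among them Itgb7 had an interaction of -2.30 ± 0.10.

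**Figure D2:**
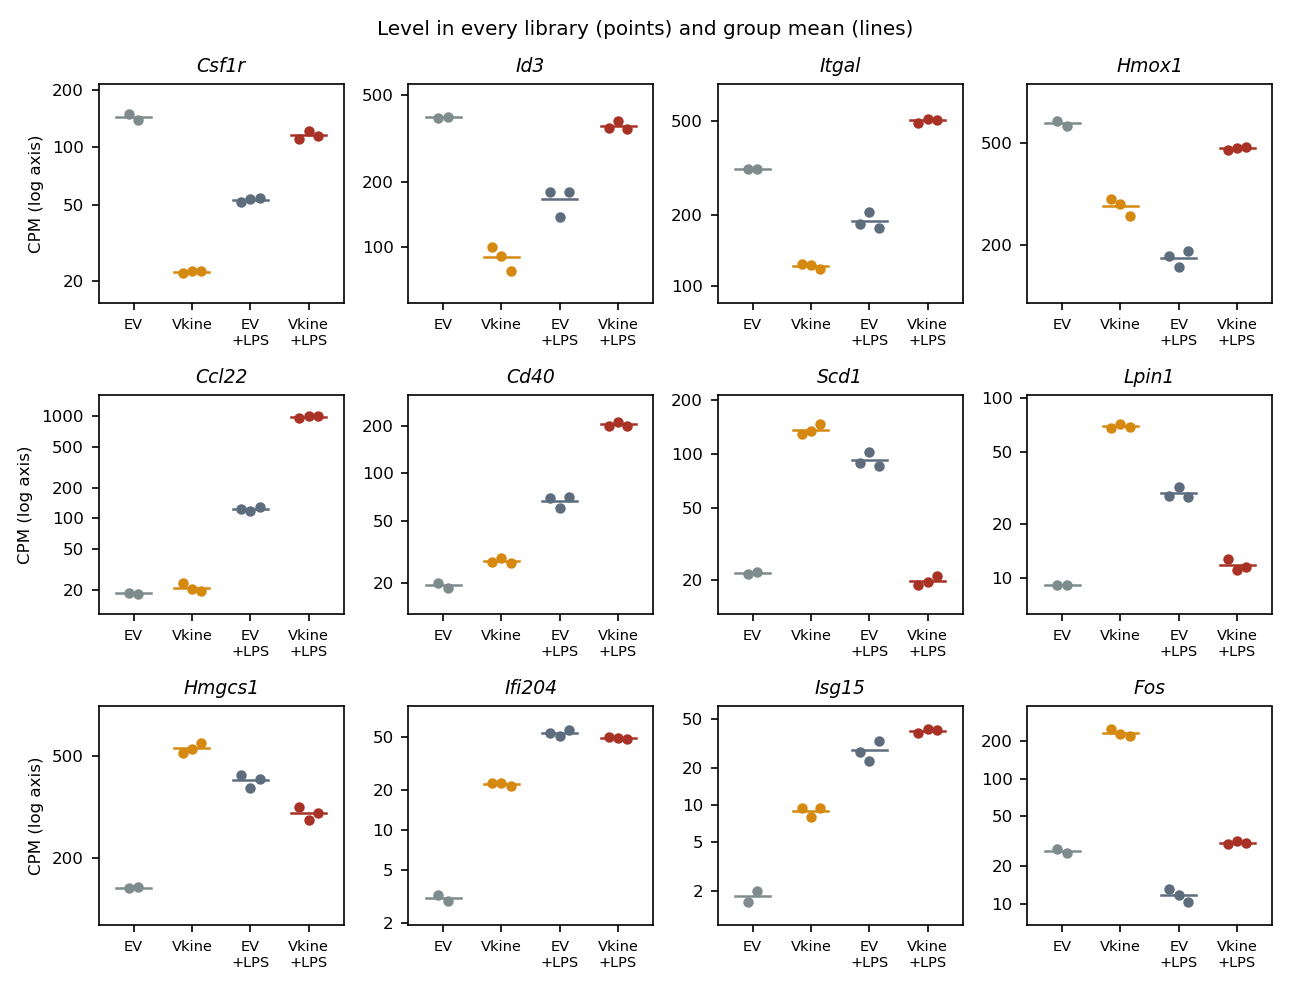
Level of 12 genes in CPM on a log axis, with a point for every library and a line at the mean of each group (EV, Vkine and both with LPS). Csf1r, Id3, Itgal and Hmox1 were lower with Vkine or LPS alone than with both, and with both Csf1r, Id3 and Hmox1 lay below EV and Itgal above it; Ccl22 and Cd40 were highest with both; Scd1 and Lpin1 rose with each alone and were close to EV with both; Hmgcs1, Ifi204 and Isg15 rose with each alone and stayed with both far below the product of the 2 fold changes; Fos was highest with Vkine alone.

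Genes of lipid metabolism showed the opposite pattern. Oxysterol-activated LXR receptors and SREBP factors drive the genes of fatty acid and sterol synthesis and of cholesterol export. Scd1 (chromosome 19, 44394451 to 44407709), which makes monounsaturated fatty acids, was at 21.5 and 22.2 CPM in EV, 129, 134 and 147 in Vkine, 89.0, 103 and 85.9 in LPS-treated EV and 18.6, 19.5 and 21.1 in LPS-treated Vkine. Each agent alone raised it, and with both it was just below EV in every library. The Vkine difference was 2.64 ± 0.10 without and -2.23 ± 0.09 with LPS, and the interaction of -4.87 ± 0.13 had an edgeR adjusted p of 6.0e-13. Multiplied fold changes would have given 579 CPM, against a mean of 19.8. Lpin1, a phosphatidate phosphatase, was at 9.12 and 9.14 CPM in EV, 67.7, 71.6 and 69.3 in Vkine, 28.7, 31.9 and 28.3 in LPS-treated EV and 12.8, 11.2 and 11.5 in LPS-treated Vkine. Its groups did not overlap either, and its interaction was -4.25 ± 0.13. The cholesterol exporter Abcg1 and the desaturase Scd2, whose mean reached 2523 CPM in Vkine and 884 in LPS-treated Vkine, had interactions of -2.90 ± 0.11 and -2.77 ± 0.11. Of 15 measured LXR and fatty acid genes 13 were called lower and 2 higher, and 10 of the 13 were higher without LPS and lower with it. The list median of the Vkine difference was 0.79 without LPS and -0.35 with it, against 0.01 and 0.01 over all genes. With the GC and length terms these list medians were 0.83 and -0.57. The 2 called higher were Fasn, the fatty acid synthase, at 0.42 ± 0.11, and Apoe, a carrier of lipids, at 0.86 ± 0.22. Neither was called with the GC and length terms (-0.0011 and 0.34).

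The cholesterol synthesis pathway moved nearly as a block. Of 24 measured members 19 were called lower and 1 higher, with a median interaction of -1.35. Vkine alone raised 22 of the 24 and lowered none. With LPS it lowered 11 and raised 3, and all 11 were among those called lower by the interaction. Hmgcs1, which makes the substrate of the rate-limiting reductase, was at 152 and 155 CPM in EV, 514, 532 and 561 in Vkine, 423, 375 and 405 in LPS-treated EV and 316, 281 and 299 in LPS-treated Vkine. Every treated library was above EV, but those with both agents were below those with either. The interaction was -2.23 ± 0.10 (edgeR adjusted p = 1.5e-10), and multiplied fold changes would have given 1399 CPM. Msmo1 and Idi1, enzymes of later and earlier steps, and Insig1, which retains SREBP in the endoplasmic reticulum, had interactions of -2.15 ± 0.11, -2.26 ± 0.11 and -1.82 ± 0.09. Srebf2, the gene of the SREBP factor for sterol synthesis, was the member called higher, at 0.27 ± 0.09, and it was not called with the GC and length terms (-0.09). The sterol element core TCACNCCAC, searched on both strands, was found in 1 of 20 RefSeq promoters of the list (17 of its 24 measured genes matched) and in 1.24% of 32851 promoters. A promoter here is the 250 bases before and 50 after a gene start in RefSeq's GRCm38.p6 annotation. The match lies in Hmgcs1, in capitals in this stretch of 120 bases of the plus strand that ends before the gene start, chr13:119690158-119690277.
Hmgcs1: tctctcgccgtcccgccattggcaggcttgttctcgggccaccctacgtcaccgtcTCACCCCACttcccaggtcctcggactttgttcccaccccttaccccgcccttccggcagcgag

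Most interferon-stimulated genes were higher with Vkine alone, and under LPS the difference made by Vkine centred near 0. Of 33 measured type I interferon response genes 25 were called lower and 4 higher. The median interaction was -1.22. The median Vkine difference was 1.41 without LPS, with 27 of 33 higher, and -0.01 with LPS, with 6 higher and 4 lower. LPS raised the list by a median of 2.55 in EV and 1.14 in Vkine. The mean was highest in LPS-treated Vkine in 16 of 33 genes and lowest in EV in 30, and under LPS Vkine lowered 4. Isg15, a ubiquitin-like modifier, was at 1.61 and 2 CPM in EV, 9.42, 8 and 9.32 in Vkine, 27.0, 22.7 and 33.2 in LPS-treated EV and 38.0, 41.2 and 40.6 in LPS-treated Vkine. The groups did not overlap and rose in that order, and the interaction was -1.78 ± 0.24 (edgeR adjusted p = 2.1e-05). In CPM its difference of differences was positive, 5.17, so the sign of this interaction holds on the log scale and not on the linear one. Ifit2 and Ifi27l2a, further interferon-stimulated genes, had interactions of -2.05 ± 0.17 and -2.07 ± 0.18, and Stat2 and Irf9, transcription factors of the pathway, -1.07 ± 0.10 and -1.04. Oas2, which makes the activator of RNase L, had -3.17 ± 0.32. Oasl1, an oligoadenylate synthetase relative, was an exception. It was at 172 and 167 CPM in EV, 101, 94.9 and 89.9 in Vkine, 203, 193 and 223 in LPS-treated EV and 385, 421 and 414 in LPS-treated Vkine, an interaction of 1.81 ± 0.10.

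The Ifi200 family of DNA sensors and the Schlafen genes moved with them. Of 16 measured members 13 were called lower and none higher, with a median of -1.26 that was -0.60 with the GC and length terms, and reads can be shared among these close paralogs. Ifi204 was at 3.21 and 2.89 CPM in EV, 22.5, 22.4 and 21.5 in Vkine, 53.1, 50.9 and 56.2 in LPS-treated EV and 49.6, 49.4 and 48.6 in LPS-treated Vkine. Vkine raised it by 2.85 ± 0.11 without LPS, and under LPS the difference of -0.12 ± 0.07 did not pass the test (edgeR adjusted p = 0.19). Slfn5 behaved the same way, with 2.68 ± 0.14 without and 0.17 ± 0.09 with LPS. Of 14 interferon-inducible GTPases, which attack intracellular pathogens, 7 were called lower and none higher, and 4 lower with the GC and length terms. The transcription factors themselves were split, 5 higher and 5 lower of 14, and 3 and 5 with the GC and length terms. Irf1 and Irf5 had interactions of 1.51 ± 0.11 and 1.41 ± 0.09. Irf8, the defining factor of this dendritic cell type, had 0.68 ± 0.08 at levels of 3378 to 4833 CPM (0.30 with the GC and length terms).

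The interferon response element core, GAAANNGAAA on either strand with overlapping matches counted, was searched in the promoters. It was found in 14 of 28 promoters of the type I interferon list (23 of 33 genes matched) and in 13 of 17 of the Ifi200 and Schlafen list (14 of 16 genes), against 3.44% of all promoters. Among genes called by the interaction the share was 4.91% of promoters for those called lower and 2.62% for those called higher. The AP-1 core TGANTCA, the CRE core TGACGTCA and the NF-kB motif were searched too. They were in 1, 2 and 6 of the 27 promoters of immediate early genes. The shares were 5.02%, 3.1% and 10.3% of promoters of the genes tested, and 7.81%, 1.79% and 8.46% of all promoters. The 3 stretches below, of 120 bases on the minus strand of RefSeq GRCm38.p6 and ending before the gene start, show the element in genes of both lists. They are chr4:156200832-156200951 for Isg15, chr5:120907526-120907645 for Oas1a and chr1:173599281-173599400 for Ifi213, with the matches in capitals.
Isg15: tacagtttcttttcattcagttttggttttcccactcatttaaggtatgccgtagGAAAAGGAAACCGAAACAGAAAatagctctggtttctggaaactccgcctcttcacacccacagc
Oas1a: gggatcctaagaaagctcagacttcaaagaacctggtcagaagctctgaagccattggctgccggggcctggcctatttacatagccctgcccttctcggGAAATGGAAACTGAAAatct
Ifi213: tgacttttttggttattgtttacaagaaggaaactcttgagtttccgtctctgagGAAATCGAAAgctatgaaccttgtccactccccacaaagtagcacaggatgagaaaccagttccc
Isg15 holds 3 overlapping matches, Oas1a 2 and Ifi213 1. Oas1a had a mean of 0.739 CPM in EV, 4.20 in Vkine, 8.89 in LPS-treated EV and 9.61 in LPS-treated Vkine, an interaction of -2.38 ± 0.29. Ifi213 had 0.674 and 0.590 CPM in EV and 7.18 to 7.80 in LPS-treated Vkine, an interaction of -3.22 ± 0.26. A match describes the sequence and is not a measured binding site.

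Among the chemokines, Ccl22 was raised by Vkine under LPS. It attracts regulatory and other CCR4-bearing T cells and is made by mature dendritic cells. Its levels were 18.6 and 18.3 CPM in EV, 23.1, 20.2 and 19.5 in Vkine, 122, 117 and 128 in LPS-treated EV and 971, 999.8 and 1005 in LPS-treated Vkine. Vkine alone did not pass the test (0.19 ± 0.09, edgeR adjusted p = 0.11). Under LPS it raised Ccl22 by 3.02 ± 0.07, an interaction of 2.83 ± 0.11 (edgeR adjusted p = 2.7e-11). Multiplied fold changes would have given 139 CPM, and the mean was 992 ± 18.2 (SD, n = 3). Cx3cl1, the ligand of CX3CR1, was at 14.7 and 11.7 CPM in EV, 3.47 to 5.15 in every library with 1 agent, and 17.9, 21.1 and 21.0 with both, an interaction of 3.76 ± 0.21. Of 14 measured chemokines 4 were called higher and 4 lower, near the 25.5% and 23.7% of all genes. Vkine raised 13 of the 14 under LPS and 7 without it, against 22.8% and 16.9% of all genes. The interferon-induced chemokines Cxcl9 and Cxcl10 were called lower, at -0.91 ± 0.14 and -2.06 ± 0.24, although their CPM were highest with both agents (means of 249.7 and 20.7). Their differences of differences in CPM were positive, 144 and 1.03. With the GC and length terms Cxcl9 had -0.59.

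Lists of dendritic cell maturation had shares called near those of all genes (25.5% higher and 23.7% lower), while some members were highest with both agents. Cd40, the receptor through which T cells license dendritic cells, was at 20.1 and 18.8 CPM in EV, 27.5, 29.1 and 27.1 in Vkine, 69.6, 60.4 and 71.0 in LPS-treated EV and 199.7, 211 and 199.5 in LPS-treated Vkine. The groups did not overlap, and the interaction was 1.08 ± 0.11 (edgeR adjusted p = 1.6e-06). Marcksl1, a regulator of the actin cytoskeleton, had 1.25 ± 0.12. Cd83, a maturation marker, was called lower at -0.77 ± 0.10, and Cd86, a ligand of CD28, was not called, at -0.02 ± 0.10 (called at 0.29 with the GC and length terms). Of 18 measured mature dendritic cell genes, 6 were higher and 5 lower, and of 11 costimulatory and checkpoint ligands 3 and 3. Of 16 NF-kB subunits and inhibitors 7 were higher and 4 lower, with a median of 0.27; with the GC and length terms 4 were higher and 3 lower, with a median of 0.05. Nfkb1, a subunit, was at 275 to 284 CPM in EV and Vkine, 327 to 347 in LPS-treated EV and 555, 591 and 555 in LPS-treated Vkine. Its interaction was 0.76 ± 0.08, and those of Tnip1, an inhibitor of the pathway, and Bcl3, a nuclear cofactor, were 1.41 ± 0.11 and 1.17 (0.74 for Bcl3 with the GC and length terms). Nfkb2, at 0.52 ± 0.09, was no longer called with the GC and length terms (0.07).

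Of 12 measured inflammatory cytokines 5 were called lower and 2 higher, with a median of -1.16 that was -0.71 with the GC and length terms. Il1a, an alarmin of the interleukin-1 family, was at 5.49 and 5.36 CPM in EV, 15.1, 17.2 and 16.1 in Vkine, 11.7, 11.9 and 13.4 in LPS-treated EV and 8.58, 8.81 and 8.77 in LPS-treated Vkine. Each agent alone raised it above the level with both, an interaction of -2.07 ± 0.16. Tnf was at 2.12 and 1.18 CPM in EV, 14.4, 13.6 and 12.9 in Vkine, 5.90, 5 and 6.55 in LPS-treated EV and 19.0, 20.0 and 21.4 in LPS-treated Vkine. It was highest with both, yet its interaction was -1.24 ± 0.25 on the log scale and 2.31 in CPM. Il15, which sustains NK and memory T cells, had -1.19 ± 0.16. Of 14 inflammasome and pyroptosis genes 7 were called lower and none higher, among them the DNA sensor Aim2 (-0.87 ± 0.10) and the pore protein Gsdme (-1.73 ± 0.20). Nlrp3 and Casp1 were not called, at 0.17 ± 0.11 and 0.32 ± 0.16, and with the GC and length terms Casp1 was called at 0.93.

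Immediate early genes, the first to answer growth factor and kinase signals, were raised by Vkine without and with LPS, by less with it in most called members. Vkine raised 18 of 23 measured members and lowered 3 without LPS, with a median of 1.17, and raised 16 and lowered none with LPS, with a median of 0.70. The interaction was called lower in 13 and higher in 5, and with the GC and length terms lower in 16 and higher in 1. Fos, a subunit of AP-1, was at 27.2 and 25.5 CPM in EV, 246, 228 and 217 in Vkine, 13.2, 11.9 and 10.4 in LPS-treated EV and 30.1, 32.0 and 30.6 in LPS-treated Vkine. LPS lowered it in EV and in Vkine, with log2 fold changes of -1.16 ± 0.10 and -2.90 ± 0.08, and the interaction was -1.74 ± 0.13 (edgeR adjusted p = 4.6e-08). Egr1 and Egr2, zinc finger factors, and Zfp36, which destabilises cytokine mRNA, had interactions of -1.24 ± 0.12, -2.87 ± 0.28 and -1.67 ± 0.14. Egr2 had a mean of 1.25 CPM in EV, 21.5 in Vkine, 1.28 in LPS-treated EV and 3.04 in LPS-treated Vkine. The feedback genes of the same kinase cascade did not share this: of 12 measured phosphatase and Sprouty genes 5 were higher and 1 lower, with Spry4 at 1.38 ± 0.18 and Dusp2 at 2.38 ± 0.31.

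**Figure D3:**
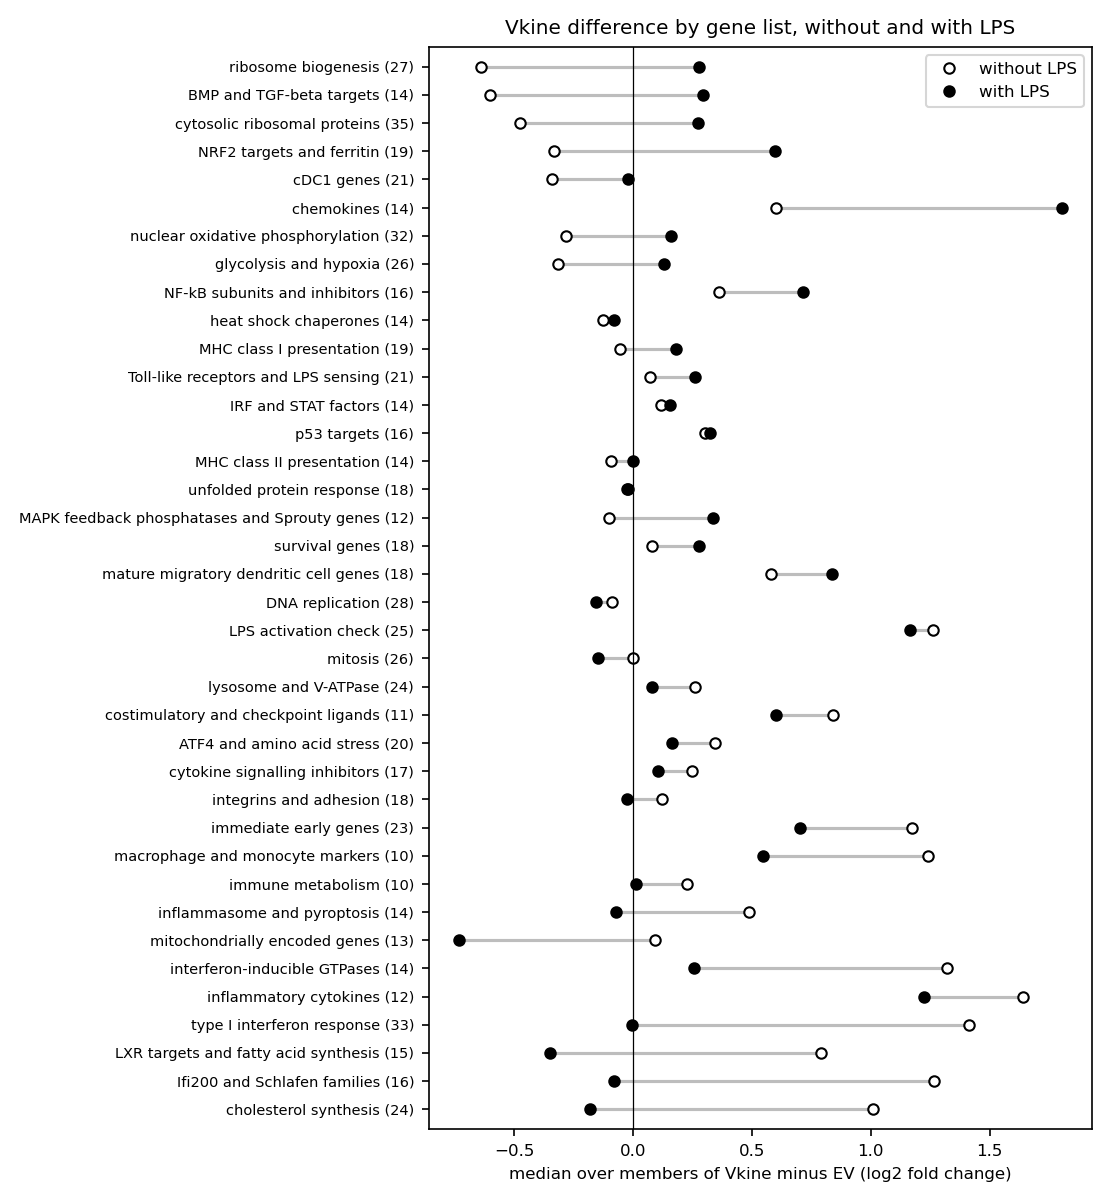
Median log2 fold change of Vkine against EV over the measured members of each list with at least 10 of them (number in brackets), without LPS (open circles) and with LPS (filled circles), ordered by the median interaction. Ribosome biogenesis, BMP and TGF-beta targets, ribosomal proteins, NRF2 targets, oxidative phosphorylation and glycolysis passed from below 0 to above it; cholesterol synthesis, LXR targets, Ifi200 and Schlafen genes and type I interferon genes passed from 0.79 or more to 0 or below.

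Genes of the translation machinery were mostly lower with Vkine alone, and under LPS more of them were raised than lowered by Vkine. Of 27 measured ribosome biogenesis genes 24 were called higher and none lower, with a median interaction of 0.86. Vkine alone lowered 26 of them, with a median of -0.64. Under LPS it raised 15 and lowered 1, with a median of 0.28 (0.15 with the GC and length terms). Mybbp1a, a nucleolar protein, was at 399 and 395 CPM in EV, 236, 252 and 223 in Vkine, 305, 332 and 322 in LPS-treated EV and 461, 478 and 493 in LPS-treated Vkine. Its groups did not overlap, with Vkine lowest and both agents highest, and the interaction was 1.32 ± 0.09 (edgeR adjusted p = 2.4e-08). Of 35 cytosolic ribosomal protein genes 24 were called higher and none lower, with a median of 0.74. The mean of all 35 was lowest in Vkine. Under LPS Vkine raised 18 and lowered 1, with a median of 0.28 (0.13 with the GC and length terms). Their summed level was 23205 to 33720 CPM in LPS-treated EV and 32053 to 34398 in LPS-treated Vkine, so these 2 groups overlapped. Rpl11, a protein of the large subunit, was at 488 and 456 CPM in EV, 282, 255 and 229.6 in Vkine, 351, 282 and 428 in LPS-treated EV and 517, 580.1 and 515 in LPS-treated Vkine, an interaction of 1.49 ± 0.17. LPS-treated EV replicate 2 was the lowest of its group here and overlapped Vkine. Myc, which drives these genes in many cells, had 0.86 ± 0.10.

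Energy and redox genes turned in the same direction. Of 32 nuclear oxidative phosphorylation genes 21 were called higher and none lower, with a median of 0.45, and 28 had their highest mean in LPS-treated Vkine. Under LPS Vkine raised 13 and lowered 2, with a median of 0.16. Their summed level was 5158 to 6678 CPM in LPS-treated EV and 6588 to 7041 in LPS-treated Vkine, so these 2 groups overlapped. Cox8a, a subunit of cytochrome c oxidase, and Sdhd, of succinate dehydrogenase, had interactions of 1.25 ± 0.14 and 1.01 ± 0.14 (0.77 for Cox8a with the GC and length terms). Of 26 glycolysis and hypoxia entries 17 were higher and 5 lower, with a median of 0.44; the symbol Aldoa stands for 2 gene entries. With the GC and length terms 14 were higher, the median was 0.24, and the median Vkine difference under LPS was 0.00175 in place of 0.13. Pgam1, a phosphoglycerate mutase, had means of 544, 319.7, 386 and 498 CPM in EV, Vkine, LPS-treated EV and LPS-treated Vkine, an interaction of 1.14 ± 0.10. Hif1a, the hypoxia factor, went the other way at -1.06 (-0.47 with the GC and length terms), and so did Fbp2, a fructose bisphosphatase. Fbp2 was at 1.5 and 0.707 CPM in EV, 39.4, 36.1 and 41.0 in Vkine, 2.10, 1.29 and 2.80 in LPS-treated EV and 1.37, 1.49 and 1.10 in LPS-treated Vkine. It was high with Vkine alone and low in the rest, as was Cnpy1, an endoplasmic reticulum protein, at 55.8 to 59.4 CPM in Vkine and 1.26 to 2.26 in every other library. Their interactions were -5.75 ± 0.38 and -5.30 ± 0.21. Of 19 NRF2 targets and ferritin genes, which defend against oxidants, 13 were higher and 1 lower. Hmox1, which breaks down haem, was at 609 and 584 CPM in EV, 301, 287 and 259.5 in Vkine, 181, 164 and 188 in LPS-treated EV and 468, 479 and 484 in LPS-treated Vkine, an interaction of 2.50 ± 0.10 (edgeR adjusted p = 4.8e-11). Each agent lowered it and the cells with both lay nearer EV. Txnrd1, a thioredoxin reductase, had the same order at 1.17 ± 0.09.

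**Figure D4:**
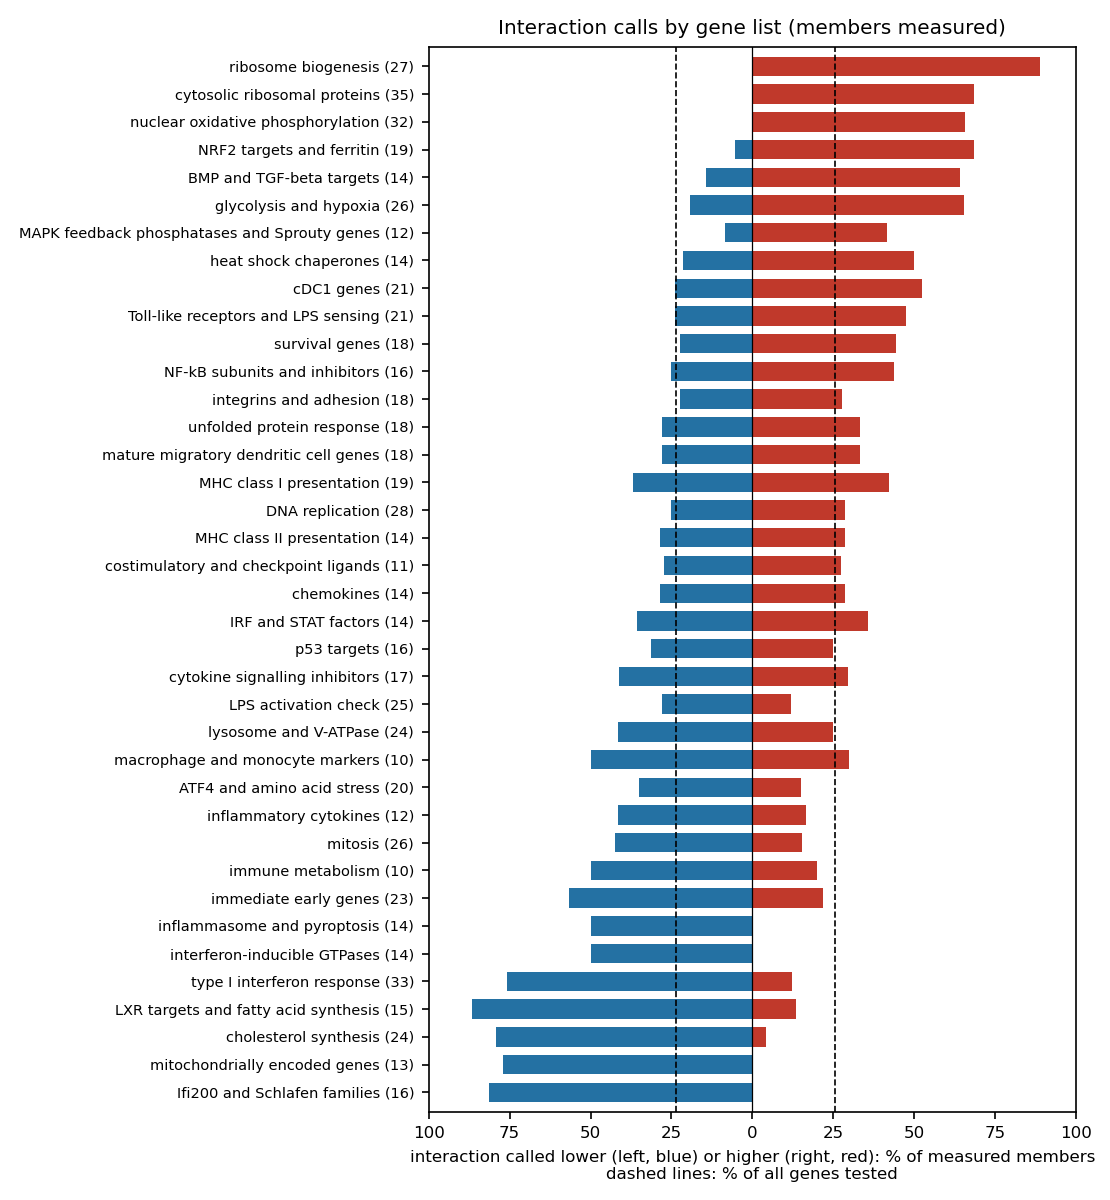
Percent of measured members called lower (blue, to the left) and higher (red, to the right) by the interaction in each list with at least 10 measured members (number in brackets), with dashed lines at the 23.7% and 25.5% of all genes. Ribosome biogenesis has 24 of 27 members called higher and LXR targets 13 of 15 called lower, while lists such as MHC class II presentation and DNA replication lie near the dashed lines on both sides.

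The interaction varied with the base composition of transcripts, which the libraries also differed in. Across 13340 genes with an annotated transcript, Spearman's correlation of the interaction with GC content was 0.46, a description across genes that share the same libraries. In the lowest of 5 equal bins by GC content, 4.24% were called higher and 48.5% lower, and in the highest bin 49.0% and 8.58%. The libraries moved with this: the median deviation of the lowest bin was -0.12 and -0.10 in EV and -0.19 to -0.07 in LPS-treated Vkine, and 0.03 to 0.22 in the other 6 libraries (log2 CPM). Whether these shifts arose in the cells or in the libraries was not tested. With the GC and length terms 3418 genes were called higher and 2504 lower. It kept 74.3% of the genes called higher and 61.5% of those called lower, and 1980 genes then moved in opposite directions. Over all genes 54 were called with the opposite sign. Of the 173 called genes singled out by rule 164 stayed called, 0 changed sign and 38 were at less than their interaction divided by 1.5. All 29 with the largest interactions or reversals stayed called, at 2.07 or more in size. Both sets were chosen by size or p in these same data, so their staying called was likely from the start and does not speak for other genes.

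**Figure D5:**
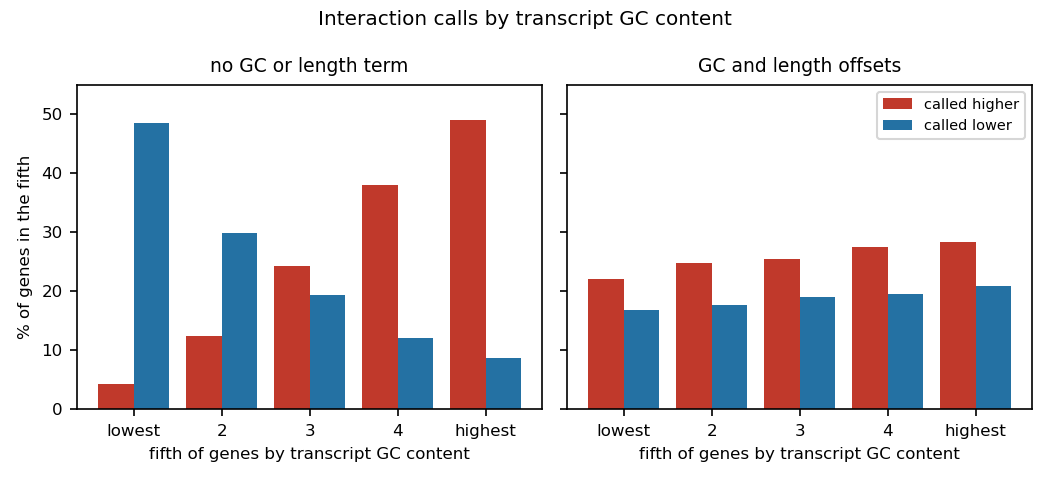
Percent of genes called higher (red) and lower (blue) by the interaction in 5 equal bins of genes by transcript GC content, without a GC or length term (left) and with such terms for each library (right). On the left calls pass from 48.5% lower in the lowest bin to 49% higher in the highest; on the right the shares run from 22% to 28.3% higher and from 16.8% to 20.8% lower.

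Lists of lipid, interferon, translation and energy genes kept their direction with these terms, and immediate early genes had 16 of 23 lower. Cholesterol synthesis then had 22 of 24 members lower, LXR targets 12 of 15, type I interferon 24 of 33 and the Ifi200 and Schlafen list 11 of 16, with 2 higher and the smaller median given above. Ribosome biogenesis had 27 of 27 higher, ribosomal proteins 27 of 35 and oxidative phosphorylation 22 of 32. Mitochondrially encoded genes did not keep it. Of 13 measured 10 were called lower and none higher, with a median of -0.81, and with the terms 4 were lower and 3 higher, with a median of 0.07. mt-Co1, a cytochrome c oxidase subunit, was at 6192 and 6423 CPM in EV, 8056 to 8616 in Vkine, 7642 to 8892 in LPS-treated EV and 4224 to 4641 in LPS-treated Vkine. The libraries with both agents were lowest, as was their share of mitochondrial counts given above, and the interaction of -1.26 ± 0.10 was -0.57 with the terms.

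MHC lists were split between directions, and more type 1 dendritic cell genes were called higher than lower. Of 19 MHC class I genes 8 were higher and 7 lower: the peptide transporter Tap1 had an interaction of 1.02 ± 0.09 and B2m, the shared light chain, -0.95 ± 0.11 (-0.39 with the GC and length terms). Of 14 MHC class II genes 4 were higher and 4 lower, near the 25.5% and 23.7% of all genes. Ciita, their master regulator, was not called at 0.05 ± 0.11 (called at -0.31 with the GC and length terms). Of 21 type 1 dendritic cell genes 11 were higher and 5 lower, with a median of 0.49, and with the GC and length terms 14 were higher and 3 lower, with a median of 0.45. Batf3, a factor this cell type needs, had 1.27 ± 0.14 (0.70 with the terms) and Itgax, which encodes CD11c, 0.82 ± 0.09. The cross-presentation receptor Clec9a was not called, at 0.12 ± 0.10, and the chemokine receptor Xcr1 had -0.27 ± 0.10. With the terms Clec9a was called at 0.45, and Xcr1 was not called, at 0.20. Of 21 genes of Toll-like receptor and LPS sensing 10 were higher and 5 lower. The LPS receptor Tlr4 was at 4.05 to 9.17 CPM over all libraries, with an interaction of 0.61 ± 0.24 (edgeR adjusted p = 0.047; 1.27 with the terms), and its co-receptor Cd14 had 0.92 ± 0.27. The nucleic acid sensor Tlr13 had -2.32 ± 0.30, from means of 1.64 CPM in EV and 6.42 in Vkine to 3.64 in LPS-treated EV and 2.85 in LPS-treated Vkine.

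Cell cycle and stress lists had calls in both directions, as did all genes tested (25.5% higher and 23.7% lower). Of 28 DNA replication genes 8 were higher and 7 lower, near those shares, and of 26 mitosis genes 4 and 11. With the GC and length terms the counts were 7 and 5 for DNA replication and 8 and 7 for mitosis. Nusap1, a spindle protein, had -1.09 ± 0.11 (-0.66 with the terms). Of 16 p53 targets 4 were higher and 5 lower, also near the shares of all genes, and with the terms 4 and 3. The cell cycle inhibitor Cdkn1a had 1.11 ± 0.09. Of 20 ATF4 and amino acid stress genes 3 were higher and 7 lower, with the pseudokinase Trib3 at -3.17 ± 0.34, and with the terms 1 was higher and 13 lower. Of 18 unfolded protein response genes 6 were higher and 5 lower, and with the terms 10 and 3. Of 24 lysosome genes 6 were higher and 10 lower, and with the terms 4 and 10. Of 18 survival genes 8 were higher and 4 lower, with the apoptosis initiator Casp8 at -0.93 ± 0.09.

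Versican itself, the protein from which versikine is cut, was near the limit of detection. Vcan was at 0.518 and 0.590 CPM in EV, 1.31, 0.832 and 0.837 in Vkine, 0.166, 0.530 and 0.280 in LPS-treated EV and 0.829, 0.286 and 0.438 in LPS-treated Vkine. The interaction of -0.14 ± 0.77 was not called (edgeR adjusted p = 0.89), and with this error a change of about 2-fold was not detectable at this depth. Of 7 measured genes of versican, hyaluronan and ADAMTS biology 3 were higher and 2 lower. Cd44, the hyaluronan receptor, had 0.75 ± 0.10 and Hyal2, a hyaluronidase, 1.81 ± 0.26. Hapln3, a link protein of hyaluronan and proteoglycans, was at 3.79 to 4.13 CPM in Vkine and 0.195 to 1.01 in every other library, an interaction of -4.67 ± 0.52.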

How the data were processed

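RNA was measured by sequencing in 11 MutuDC samples; 6 tumour CD45+ samples were not analysed here. The submitters' processing notes name featureCounts 1.5.0-p3, STAR, fastp and DESeq2 1.20.0, and build GRCm38. The deposited counts are whole, unnormalised and given for each Ensembl gene; the authors' FPKM equal counts scaled by a fixed gene length and the column total. Strand use in counting is not given in the sources used here.

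Groups came from the labels. Counts were filtered with filterByExpr (minimum count 10), scaled by TMM and fitted in 1 model over the 4 groups with edgeR 4.0.16 under R 4.3.3, robust quasi-likelihood F test, Benjamini-Hochberg adjustment over the 13357 genes, threshold 0.05. Each SE is the size of the log2 fold change over the root of its F statistic. Levels in CPM use TMM-scaled totals, summed marker levels raw totals, and log2 CPM a prior count of 2. The level with multiplied fold changes is the mean of Vkine times that of EV with LPS over that of EV. Depth of 15938185 to 21263321 counts per library limits precision for genes under about 1 CPM. No test was made over a list.

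Named genes are those with the largest interactions (12 per direction), reversals (8 per direction, by the smaller of the 2 Vkine differences) and differences in CPM (3 per direction) among called protein-coding genes with mean log2 CPM of at least 2, Vcan, and the 4 members of smallest p in each of 41 lists. Adgre1, Apoe, C1qb, C1qc, Casp1, Cd14, Cd86, Ciita, Clec9a, Fasn, Hif1a, Myc, Nlrp3, Oas1a, Srebf2, Tgfbr2, Tlr4 and Xcr1 were chosen after their values were seen. The members and lists were chosen with earlier results of these data known.

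Alternatives were DESeq2 and upper-quartile factors, no filter, a CPM of at least 1 in 2 samples, DESeq2 1.42.0, estimation without robustness, limma 3.58.1 on log2 FPKM with 1 or 0.1 added, a replicate block, leaving out each sample, and GC and length offsets, which were added after seeing the data. Same-numbered samples did not deviate together, so numbers were not used as pairs. The pipeline was tested on simulated data. Promoters are RefSeq's GRCm38.p6.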

Additional observations from a re-analysis of the deposited data

Results flagged for a closer look

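By the interaction test, the effect of Vkine differed between cells without and with LPS in 3409 genes upward and 3168 downward, and 2437 of these also moved in opposite directions. The genes given here had the largest value of the smaller of the 2 Vkine differences (8 per direction), so they are not ranked by interaction, and larger interactions such as those of Csf1r and Smad9 stand in the report. From lower without LPS to higher with it they were Cx3cl1 (interaction 3.76), Atp5k (3.64), Dok2 (3.47), Gadd45g (3.33), P2rx5 (3.02), Btbd11 (2.88), Sema4a (2.82) and Itgal (2.79). Those from higher to lower were Scd1 (-4.87), Lpin1 (-4.25), Hpgds, a prostaglandin D synthase (-3.26), Gca, a calcium-binding protein (-3.17), Abcg1 (-2.90), Tspan8 (-2.61), Arl11 (-2.58) and St8sia1, a ganglioside synthase (-2.32). Atp5k had the widest error (SE 0.61).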

How the results depend on the processing

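The counts of genes called higher and lower stayed within 1.5 times the reported ones under every alternative run. Without any 1 replicate they ran from 2638 to 3697 higher and from 2683 to 3400 lower, genes called for Vkine with LPS from 4335 to 5974, those for Vkine without LPS from 2748 to 5954 and opposite moves from 1484 to 2845; the lowest values of the last pair came without an EV replicate (2748 and 2906, and 1484 and 1571), which leaves 1 sample assumed to vary like the other groups. The DESeq2 test called 3190 higher and 3242 lower, and upper-quartile factors, which shifted the median interaction to -0.10, 2904 and 3693. Same-numbered samples correlated at -0.10 to 0.10 in their deviations, so the numbers do not pair them; with the replicate block 3210 genes were higher, 2932 lower and 2071 opposite, and 4130 were called for Vkine without LPS. Of the 173 called genes named by rule, which were chosen by size or p in these same data, none changed sign under an alternative. Vcan, which was not called, did. Cd86, Ciita, Fasn, Srebf2 and Xcr1, named after their values were seen, did so with GC and length offsets. List medians turned for IRF and STAT factors (-0.0377), MHC class II (-0.0863), mitochondrially encoded genes (0.0679 from -0.81) and DNA replication (0.0748) with GC and length offsets, MHC class II (-0.0204 and -0.0204) and the unfolded protein response (-0.0810 and -0.0814) with FPKM and 1 or 0.1 added, and the latter (-0.0103) with upper-quartile factors; the cause was not tested. Of the lowest of 5 bins of genes by level 22.2% were called, against 63.3% in the highest bin, so depth limits calls for low genes.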

Other observations

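Long intergenic RNAs leaned lower: of 337 measured, 4.75% were called higher and 26.4% lower, with a median interaction of -0.58, against 28.4% and 24.7% of protein-coding genes. These shares take no account of level or GC content. Over all genes the lowest of 5 bins by level had 7.11% higher and 15.1% lower, and the lowest by GC content 4.24% and 48.5%. Whether the lean is separate from these was not tested. Ighm, an immunoglobulin heavy chain, was at 75.7 and 76.6 CPM in EV, 201, 192 and 192 in Vkine, 134, 118 and 144 in LPS-treated EV and 110.2, 114 and 111 in LPS-treated Vkine, an interaction of -1.60 ± 0.11. Adgre1, which encodes the macrophage marker F4/80, was near 1 CPM in EV and at 38.2, 40.9 and 40.3 in LPS-treated Vkine. Each agent alone also went with a higher level. Scaled to raw library totals, its means were 1.01 CPM in EV, 2.92 in Vkine, 8.69 in LPS-treated EV and 38.1 in LPS-treated Vkine. With the GC and length terms its interaction was 0.91 ± 0.30. Of the 10 measured macrophage and monocyte markers Vkine alone raised 7, the complement genes C1qa, C1qb and C1qc among them, against 16.9% of all genes. It lowered 1, Csf1r, by -2.69. The interaction was called higher in 3 of the 10 and lower in 5. Of the 16 markers listed, 6 stayed under 1 CPM in every library. C1qa had means of 6.22 CPM in EV, 28.2 in Vkine, 22.95 in LPS-treated EV and 42.1 in LPS-treated Vkine.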
